A study of Mus musculus with 10 samples.

Results

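The small leucine-rich proteoglycans (SLRPs) are described here from 10 genes, Dcn (decorin), Bgn (biglycan), Lum (lumican), Fmod (fibromodulin), Ogn (osteoglycin), Prelp, Omd (osteomodulin), Kera (keratocan), Aspn (asporin) and Podn (podocan). They were taken by name from the 25700 genes of the count tables, by matching each Ensembl identifier to its symbol, and all 10 were measured in every mouse. The RNA came from tibialis anterior (TA) muscle of 10 male C57BL/6 mice aged 12 weeks. All muscles had been injected with cardiotoxin (CTX), a venom toxin that destroys muscle fibers, and were taken at day 6 of regeneration. The question was which genes change when the microRNA miR-501 is absent from the muscle lineage. Control mice (Pax7Cre, n = 5) carried only the Cre recombinase driven by Pax7, the transcription factor of muscle stem cells, and are labelled wild type. The other mice (miR-501ΔMP, n = 5, titled miR-501KO and labelled miR-501 -/-) carried the same Cre and a floxed miR-501 allele on their single X chromosome (Pax7CremiR-501fl/Y). The Cre driver was thus shared by both groups. It acts in muscle progenitors and the cells derived from them, and its deletion of miR-501 was not analysed here.

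SLRPs are secreted proteins of the extracellular matrix, built from leucine-rich repeats that dock on collagen fibrils and shape their width and spacing. Decorin, biglycan and asporin form class I. Decorin and biglycan carry chondroitin or dermatan sulfate chains, which asporin lacks. Lumican, fibromodulin, keratocan, osteomodulin and PRELP form class II, several of which carry keratan sulfate, while osteoglycin belongs to class III and podocan to class V. Decorin and biglycan also bind TGF-β, and decorin binds myostatin, the growth factor that restrains muscle mass. In muscle these genes are known chiefly from interstitial fibroblasts, among them the fibro-adipogenic progenitors (FAPs), and from tendon cells. In RNA from whole muscle, fewer cells of a type and less RNA per cell cannot be told apart.

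Between 18609222 and 24753258 reads were counted per mouse, and the 10 SLRP genes took 0.375% to 0.554% of them. The mitochondrial share was 6.59% to 14.0%. No mouse was a copy of another of its genotype, as the counts of the closest pair gave a chi-square 9.47 times its degrees of freedom, where sampling noise alone gives 1. That value was highest, at 226, for Pax7Cre mouse 2 against Pax7Cre mouse 4. The summed level of 10 mature fiber markers, such as Acta1 and Pvalb, was highest in Pax7Cre mouse 2 (67974 CPM, the field's library-scaled count, here with TMM factors) and lowest in Pax7Cre mouse 4 (27242 CPM), with 37557 to 51728 CPM in miR-501ΔMP. All 10 of these markers were highest in Pax7Cre mouse 2, and 7 of 10 were lowest in Pax7Cre mouse 4. Myh3, the embryonic myosin of regenerating fibers, was present in every mouse, at 1119 ± 267 CPM in Pax7Cre and 1140.2 ± 129 CPM in miR-501ΔMP (SD, n = 5 each). Because Pax7Cre mice 2 and 4 stood apart, each fold change of an SLRP gene that moved by over 1.5 times without them is also given without them. Fold changes of other genes and medians of other gene lists are given from all mice only.

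In the mouse genome GRCm38, 8 of the 10 genes lie in 3 clusters. On chromosome 10, Dcn (97479609 to 97518143), Lum (97565128 to 97572703) and Kera (97606879 to 97613692) follow each other on the plus strand, with gaps of 46984 and 34175 bases. On chromosome 13, Aspn (49544443 to 49567565), Omd (49582462 to 49592822) and Ogn (49608046 to 49624501) also share the plus strand, with gaps of 14896 and 15223 bases. All 3 overlap Cenpp, a centromere gene on the minus strand, which had 52 to 109 reads per mouse (2.55 to 4.75 CPM). On chromosome 1, Prelp (133910304 to 133921414, minus strand) and Fmod (134037254 to 134048277, plus strand) are 115839 bases apart, and Prelp overlaps the antisense gene Gm15851. Bgn stands alone on chromosome X (73483602 to 73495933, plus strand). Podn is on chromosome 4 (108014791 to 108096445, minus strand) and overlaps Scp2, a lipid transfer gene of the same strand with 45.3 to 60.9 CPM. These overlaps are between whole gene spans, and shared exons were not examined. The kit keeps strand, but the strand setting of the counting is not given in the sources used here. Whether any of the reads of Omd, which had only 26 to 45 per mouse, came from Cenpp is therefore not known.

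The bases before the start sites of 3 genes are shown because Aspn and Ogn, genes of the chromosome 13 cluster, varied together across the mice, and Bgn, the most abundant member, is set beside them. The sequences are from RefSeq, build GRCm38.p6, which gave windows for 8 of the 10 genes and none for Dcn and Lum. Capitals mark the letters of the TATA box (TATAAA), those of the CCAAT box, and those of the GC box (GGGCGG), each sought on both strands, where matches may overlap each other.
Aspn, chr13:49544193-49544442 (+): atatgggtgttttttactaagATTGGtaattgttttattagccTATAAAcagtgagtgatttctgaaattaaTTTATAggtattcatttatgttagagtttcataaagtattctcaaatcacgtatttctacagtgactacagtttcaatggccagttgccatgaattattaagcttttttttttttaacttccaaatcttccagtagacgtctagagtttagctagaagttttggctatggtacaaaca
Ogn, chr13:49607765-49608014 (+): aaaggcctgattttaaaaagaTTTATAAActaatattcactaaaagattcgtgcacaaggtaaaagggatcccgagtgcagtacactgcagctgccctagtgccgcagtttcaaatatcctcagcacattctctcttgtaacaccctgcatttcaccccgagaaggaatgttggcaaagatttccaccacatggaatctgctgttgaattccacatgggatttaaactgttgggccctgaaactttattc
Bgn, chrX:73483351-73483600 (+): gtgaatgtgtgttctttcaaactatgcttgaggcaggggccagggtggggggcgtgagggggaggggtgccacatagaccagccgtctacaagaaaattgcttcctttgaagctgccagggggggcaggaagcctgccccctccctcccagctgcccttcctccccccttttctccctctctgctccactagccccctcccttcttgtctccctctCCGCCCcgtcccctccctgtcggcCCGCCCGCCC
The GC content was 30.0% for Aspn, 42.0% for Ogn and 64.4% for Bgn, against a median of 52.4% and quartiles of 45.2% and 61.2% over 32851 mouse windows of 250 bases. TATAAA letters were present in Aspn and Ogn, and in 12.4% of all windows. They began 207 and 178 bases before the start in Aspn, and 229 and 227 bases before it in Ogn. GGGCGG letters were present at 3 positions in Bgn, within 34 bases of the start, and in 32.7% of all windows. CCAAT letters were present in Aspn, 229 bases before the start, and in 33.8% of all windows. Omd, between Aspn and Ogn, held none of these letters in a window of 38.4% GC.

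The mature microRNA and the one matching site in the family are shown because the deleted gene encodes this microRNA. In miR-501-3p, read from RefSeq build GRCm38.p6 at chrX:7241270-7241291 on the minus strand, capitals mark the seed, bases 2 to 8.
mmu-miR-501-3p: aAUGCACCcgggcaaggauuug
Prelp site, chr1:133910469-133910493 (-): gcatttatacatgcaGGTGCATgtg
The complement of the seed, GGTGCAT in capitals, was found in an annotated 3′ untranslated region of 1 of the 10 SLRP genes, Prelp, and of 1495 of 21153 mouse genes (7.07%). In Prelp it begins at base 2128 of a region of 2302 bases. A match is a description of the letters only. The level of Prelp in the mice is given with class II.

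Bgn was the most abundant SLRP gene in the regenerating muscle and Omd the least. Levels are compared between genes in CPM per kilobase of annotated exon, as means over all 10 mice. Bgn stood at 430 (range 321 to 513) and took 40.3% of the summed level of the family (range 33.4% to 48.9%). Lum (162), Aspn (156), Dcn (139.7) and Ogn (109) followed. Their neighbours in this order overlapped. Lum was above Aspn in only 4 of 10 mice, Aspn above Dcn in 8 of 10, and Dcn above Ogn in 10 of 10. Fmod (32.6), Prelp (18.8), Kera (9.97), Podn (8.05) and Omd (0.715) were lower. Prelp and Kera overlapped, with Prelp above Kera in 10 of 10 mice, and so did Kera and Podn, with Kera above Podn in 7 of 10. Bgn, Ogn, Fmod and Podn did not overlap with the gene below them.

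The place of Dcn depended on the length used. Its exons cover 5838 bases, but its longest protein-coding transcript has 1758 bases. By the latter, a length chosen after seeing the data, Dcn moved from place 4 to place 2 at 464 CPM per kilobase, above Lum (162) and Aspn (158), and Bgn stood at 1083. By the longest annotated transcript of any kind, Dcn was also at place 2 (174). With the coding length Podn (10.8) passed Kera (9.97), and the other places below Ogn were unchanged.

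**Figure D1:**
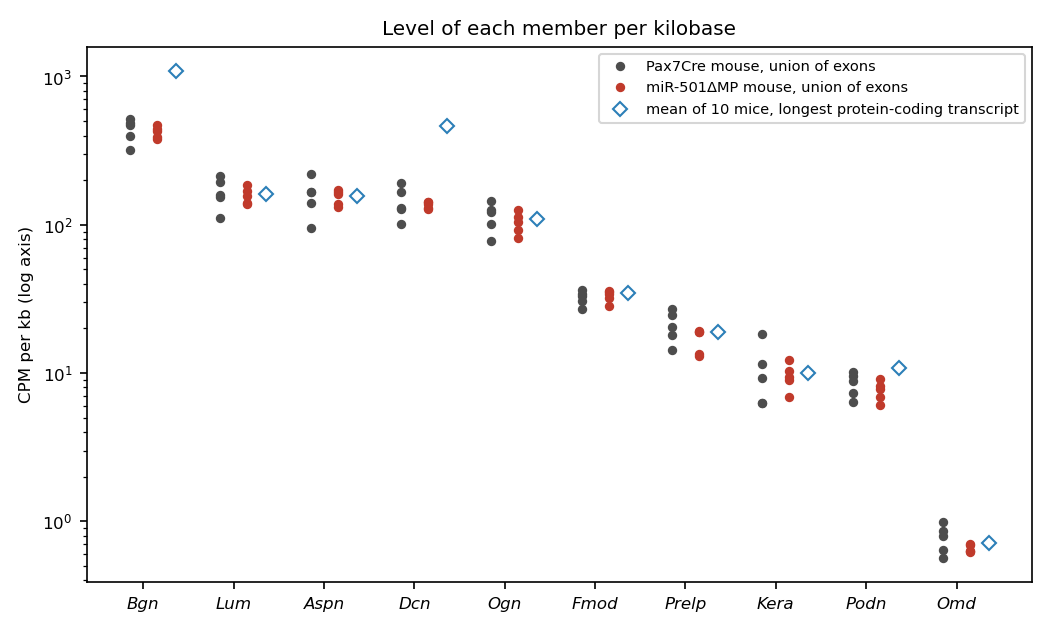
Level of each SLRP gene in CPM per kilobase on a log axis, with 1 filled point per mouse (union of exons; grey Pax7Cre, red miR-501ΔMP) and an open diamond for the mean of 10 mice by the longest protein-coding transcript. Bgn lies highest and Omd lowest by either length, and the diamond lifts Dcn from 139.7 to 464.

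Between the genotypes no SLRP gene passed the test. None of the 10 members had an adjusted p under 0.05 in the quasi-likelihood test of edgeR (0 of 14410 genes tested, 0% called), and DESeq2 called 0 as well. At an unadjusted p under 0.05, 0 of 10 members were higher or lower in miR-501ΔMP by either tool, against 0.382% of all genes higher and 0.666% lower (1.05% in either direction). These shares rest on few genes, 55 higher and 96 lower, and became 267 and 186 without Pax7Cre mouse 2, 228 and 242 without Pax7Cre mouse 4, and 39 and 59 without miR-501ΔMP mouse 1. The values of the groups overlapped for all 10 members (0.139% of all genes did not overlap, 0.0625% being higher and 0.0763% lower in every miR-501ΔMP mouse). By the exact permutation test, 0 of 10 members were under 0.05 (1.53% of all genes). The log2 fold change was below 0 for 9 of 10 members, with a median of -0.092, against 52.1% of all genes and a median of -0.0042. The members were measured in the same mice and are not independent. The 95% intervals reached as far as -0.69 (Prelp) and 0.47 (Kera) on the log2 scale, so these mice leave differences of that size possible.

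**Figure D2:**
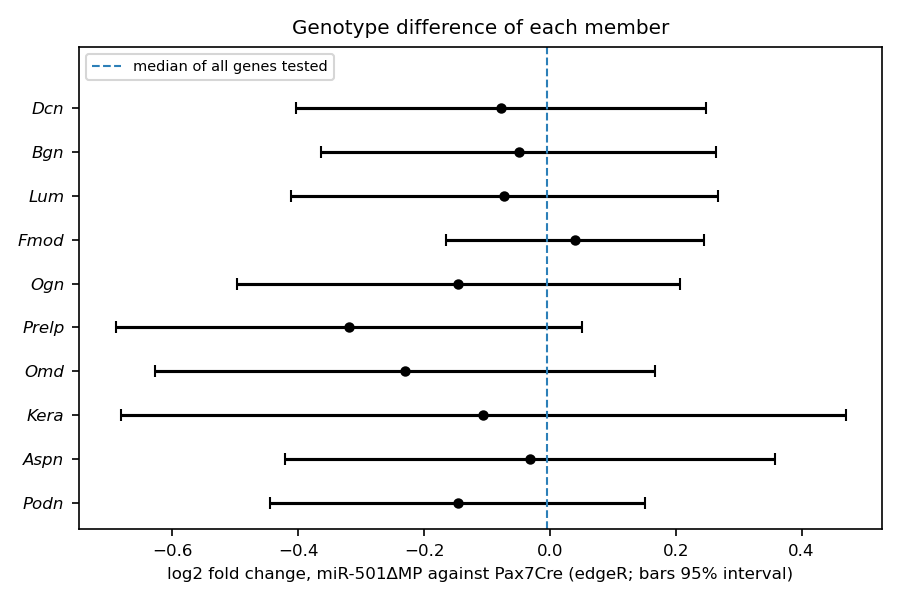
Log2 fold change of each SLRP gene, miR-501ΔMP against Pax7Cre (edgeR, 5 mice each), with bars for the 95% interval and a dashed line at the median of all genes tested, -0.0042. All 10 intervals include 0, with Prelp farthest from it at -0.32.

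In class I, Dcn and Bgn differed more among the Pax7Cre mice than between the genotypes. Dcn, the binder of collagen and TGF-β, measured 752, 1110.1, 975, 595 and 758 CPM in Pax7Cre mice 1 to 5 and 749, 807, 829, 831 and 752 CPM in miR-501ΔMP mice 1 to 5. The highest and the lowest value were both in Pax7Cre, and all miR-501ΔMP mice lay between them. The fold change of Dcn was -0.078 ± 0.150 (log2, SE; 95% interval -0.40 to 0.25; edgeR adjusted p = 1.00; exact permutation p = 0.865).

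Bgn, a collagen binder that also associates with the dystrophin complex of the fiber membrane, measured 2426, 1959, 2854, 3128 and 2959.9 CPM in Pax7Cre and 2368, 2855, 2629.6, 2319 and 2708 CPM in miR-501ΔMP. Pax7Cre mouse 2 was lowest and Pax7Cre mouse 4 highest, the reverse of Dcn, and the groups overlapped. The fold change of Bgn was -0.049 ± 0.145 (log2, SE; interval -0.36 to 0.26; edgeR adjusted p = 1.00; exact permutation p = 0.810). The sign of both genes turned on 1 mouse. Dcn was at 0.041 (log2) without Pax7Cre mouse 2, and Bgn was at 0.015 without Pax7Cre mouse 4.

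Aspn, a TGF-β binder without a glycosaminoglycan chain, measured 393, 223, 519, 331 and 389.8 CPM in Pax7Cre and 394, 406, 379, 324 and 313 CPM in miR-501ΔMP. Pax7Cre mouse 2 was again lowest, and Pax7Cre mouse 3 was highest. The fold change was -0.031 ± 0.180 (log2, SE; interval -0.42 to 0.36; edgeR adjusted p = 1.00; exact permutation p = 0.929). It was 0.12 without Pax7Cre mouse 3 and -0.26 without Pax7Cre mice 2 and 4.

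In class II, Prelp had the largest difference of the family, and it did not pass the test. Prelp, which binds collagen and the heparan sulfate of basement membranes, measured 51.6, 88.8, 74.4, 97.3 and 65.2 CPM in Pax7Cre and 47.2, 69.8, 48.6, 68.1 and 68.8 CPM in miR-501ΔMP. Pax7Cre mice 2, 3 and 4 were above every miR-501ΔMP mouse, while Pax7Cre mice 1 and 5 lay among them. The fold change of Prelp was -0.32 ± 0.171 (log2, SE; interval -0.69 to 0.050; edgeR p = 0.0847, adjusted p = 1.00; exact permutation p = 0.151), and it ranked 327 of 14410 genes by p. It was -0.43 without Pax7Cre mouse 1, where it passed an unadjusted edgeR p of 0.05 but not the adjustment (edgeR adjusted p = 1.00). Without Pax7Cre mice 2 and 4 it was -0.075.

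Lum, which spaces collagen fibrils, measured 379, 519, 473, 272 and 392 CPM in Pax7Cre and 339, 342, 414, 456 and 383 CPM in miR-501ΔMP. As with Dcn, Pax7Cre mouse 2 was highest and Pax7Cre mouse 4 lowest. The fold change was -0.072 ± 0.157 (log2, SE; interval -0.41 to 0.27; edgeR adjusted p = 1.00; exact permutation p = 0.794), and it was 0.028 without Pax7Cre mouse 2. Fmod, a partner of lumican on the same collagen sites that also guides crosslinking, had the smallest standard error of the family. It ranged from 89.1 to 120 CPM in Pax7Cre and from 93.2 to 118 CPM in miR-501ΔMP, with a fold change of 0.040 ± 0.0946 (log2, SE; interval -0.16 to 0.24; edgeR adjusted p = 1.00) that was -0.019 without Pax7Cre mouse 2.

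Kera, best known from the cornea, measured 26.3, 14.2, 42.1, 14.2 and 21.1 CPM in Pax7Cre and 21.6, 20.3, 27.8, 15.8 and 23.7 CPM in miR-501ΔMP. It had the widest spread of the family, with an SD of 0.66 (log2 CPM) in Pax7Cre and 0.30 in miR-501ΔMP. The fold change was -0.11 ± 0.266 (log2, SE; interval -0.68 to 0.47; edgeR adjusted p = 1.00; exact permutation p = 0.984), and it was 0.21 without Pax7Cre mouse 3. Omd, best known from bone, had 1.27 to 2.22 CPM in Pax7Cre and 1.40 to 1.59 CPM in miR-501ΔMP. At 26 to 45 reads per mouse its fold change of -0.23 ± 0.184 (log2, SE; interval -0.63 to 0.17; edgeR adjusted p = 1.00) was limited by counting as well.

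Of the remaining classes, Ogn, a regulator of collagen fibril thickness, measured 322, 199, 373, 261 and 311 CPM in Pax7Cre and 268, 290.4, 321, 208 and 237 CPM in miR-501ΔMP. Pax7Cre mouse 3 was highest and Pax7Cre mouse 2 lowest, and the groups overlapped. The fold change was -0.15 ± 0.163 (log2, SE; interval -0.50 to 0.21; edgeR adjusted p = 1.00; exact permutation p = 0.508). It was -0.043 without Pax7Cre mouse 3, the highest. Without Pax7Cre mice 2 and 4, the lowest of their genotype, it was -0.34, which passed an unadjusted edgeR p of 0.05 but not the adjustment (edgeR adjusted p = 0.983). Podn, a collagen binder, ranged from 27.1 to 43.5 CPM in Pax7Cre and from 26.1 to 38.7 CPM in miR-501ΔMP, with a fold change of -0.15 ± 0.138 (log2, SE; interval -0.44 to 0.15; edgeR adjusted p = 1.00).

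Without Pax7Cre mice 2 and 4, 9 of 10 members were below 0, with a median of -0.095 (log2), and none passed the adjustment. The count was 7 of 10, with a median of -0.019, without Pax7Cre mouse 3, and 8 of 10, with a median of -0.048, with the mouse number as a replicate block. Kera, whose lowest values were those of these mice, moved to -0.44, and its exact permutation p stayed above 0.05. Bgn moved to -0.092 and Podn to -0.020. Omd was at -0.15 and Fmod at 0.025.

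**Figure D3:**
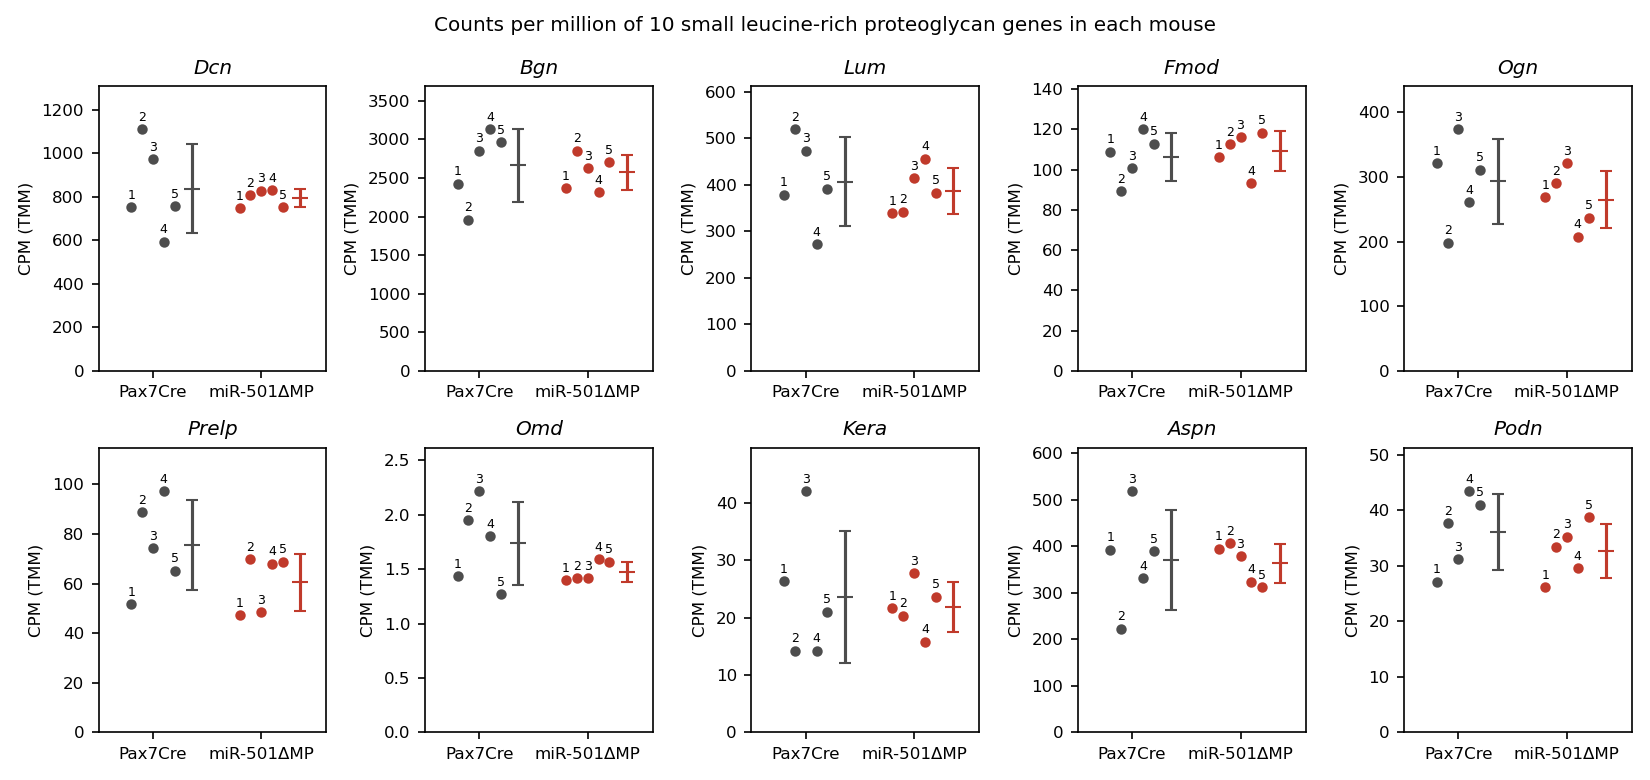
CPM of each SLRP gene in the 5 Pax7Cre (grey) and 5 miR-501ΔMP (red) mice, numbered as labelled, with the mean and SD beside the points and axes from 0. The groups overlap in all 10 panels, and the grey points are spread wider than the red ones.

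The wider spread of the Pax7Cre mice rested in part on Pax7Cre mice 2 and 4. With all mice, the SD of log2 CPM was larger in Pax7Cre for 10 of 10 SLRP genes, and for 79.2% of all genes tested. Without Pax7Cre mice 2 and 4 it was larger in Pax7Cre for 6 of 10 SLRP genes and for 62.5% of all genes, and smaller for Lum, Fmod, Ogn and Prelp. Only Pax7Cre lost mice here, and those were chosen because they stood apart, so some fall of its SD was built in. For Dcn the SD was 0.35 with all Pax7Cre mice and 0.21 without those mice, against 0.074 in miR-501ΔMP. For Ogn it was 0.35 and 0.14, against 0.25.

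Across the 10 mice the SLRP genes did not vary as one group. Pax7Cre mouse 2 had the highest Dcn and Lum of all mice and the lowest Bgn, Fmod, Ogn and Aspn. Pax7Cre mouse 4 had the lowest Dcn and Lum and the highest Bgn, Fmod, Prelp and Podn. Pax7Cre mouse 3 had the highest Ogn, Kera, Aspn and Omd. Of the 45 pairs of members, 24 had a correlation above 0 and 21 below 0 (Pearson's r of log2 CPM, 10 mice of both genotypes).

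2 pairs passed Benjamini-Hochberg adjustment over the 45 by Pearson's r, and both lie within a cluster. Dcn and Lum, neighbours on chromosome 10, had r = 0.915 (permutation p = 0.000380, adjusted 0.00855) and Spearman's rho = 0.927 (permutation p = 0.000440, adjusted 0.0198). Without the 2 mice farthest in Dcn, r was 0.746. Ogn and Aspn, on chromosome 13, had r = 0.887 (permutation p = 0.000220, adjusted 0.00855) and rho = 0.794 (permutation p = 0.00870, adjusted 0.189), with r = 0.869 without the 2 mice farthest in Ogn. Omd, which lies between them, had 45 reads at most and is too shallow for such a comparison. The remaining pairs within a cluster, those of Omd aside, did not pass. Their r was 0.198 for Dcn and Kera, 0.226 for Lum and Kera, and -0.189 for Fmod and Prelp. Ogn and Kera, on different chromosomes, had r = 0.818 (permutation p = 0.00368, adjusted 0.0552). Sharing a cluster thus did not always go with a high r.

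Dcn and Bgn, the best studied members of class I, did not vary together. Their r was -0.622 (permutation p = 0.0580, adjusted 0.244) and rho was -0.406 (permutation p = 0.249, adjusted 0.632), and r was 0.268 without the 2 mice farthest in Dcn. The negative value thus rested on those mice. Within a mouse, the ratio of Dcn to Bgn counts was 0.310, 0.567, 0.342, 0.190 and 0.256 in Pax7Cre and 0.316, 0.283, 0.315, 0.358 and 0.278 in miR-501ΔMP. It was 2.98 times as high in Pax7Cre mouse 2 as in Pax7Cre mouse 4, with no difference between genotypes beyond the spread (log2 difference -0.011, exact permutation p = 0.992).

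**Figure D4:**
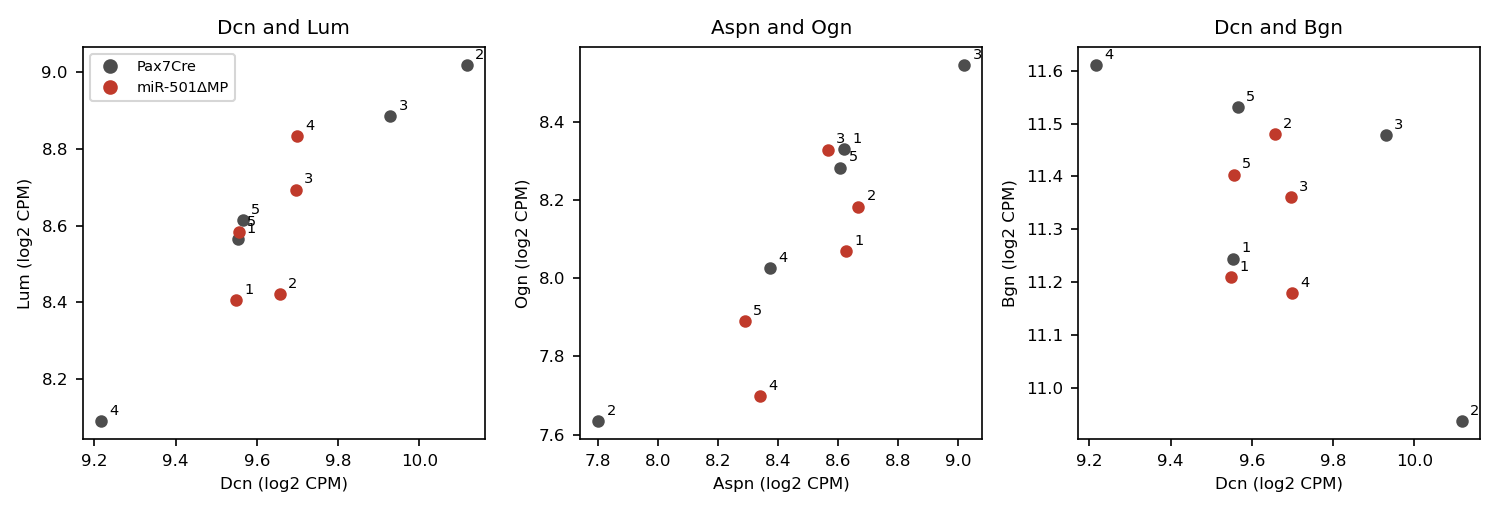
Log2 CPM of Lum against Dcn, Ogn against Aspn and Bgn against Dcn, 1 point per mouse (grey Pax7Cre, red miR-501ΔMP, numbered as labelled). The first and second panels rise from lower left to upper right, while in the third Pax7Cre mice 2 and 4 sit at opposite corners.

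The ratio of Lum to Fmod, which share collagen sites, varied between mice, with no difference between genotypes beyond the spread. Across mice the genes had r = -0.762 (permutation p = 0.00947, adjusted 0.0707) and rho = -0.612 (permutation p = 0.0675, adjusted 0.400), which did not pass, and r was -0.555 without the 2 mice farthest in Lum. Lum had 3.48, 5.82, 4.71, 2.27 and 3.47 reads per read of Fmod in Pax7Cre and 3.20, 3.04, 3.56, 4.89 and 3.24 in miR-501ΔMP (log2 difference -0.090, exact permutation p = 0.706). The ratio was highest in Pax7Cre mouse 2 and lowest in Pax7Cre mouse 4. Ogn and Bgn were closer to each other, with ratios of 0.0833 to 0.133 in Pax7Cre and 0.0875 to 0.122 in miR-501ΔMP (log2 difference -0.096, exact permutation p = 0.563). Adjusted over the 3 ratios, which were chosen after seeing the data, each p from all mice was 0.992. Without Pax7Cre mice 2 and 4 the difference was -0.26 (exact permutation p = 0.125) for Ogn to Bgn and 0.040 (exact permutation p = 0.714) for Dcn to Bgn, both unadjusted.

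The same mice differed in markers of other cells and fibers. The mean deviation of the 10 mature fiber markers from their average was 0.85 (log2) in Pax7Cre mouse 2 and -0.72 in Pax7Cre mouse 4. That of 12 fibrillar and fibril-associated collagens was -0.61 and 0.20 in those mice, and 10 of the 12 were lowest in Pax7Cre mouse 2. Their part in the SLRP pattern was not tested.

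Of 13 FAP markers, 12 were tested and Tcf21 had 0 reads. Their summed level was 5132 to 8089 CPM in Pax7Cre and 5578 to 7207 CPM in miR-501ΔMP, and it was lowest of all mice in Pax7Cre mouse 2. Their mean deviation, which weights each marker equally, was instead highest in that mouse, at 0.28 (log2), and lowest in Pax7Cre mouse 1, at -0.23. In Pax7Cre mouse 2 6 of the 12 markers were at their highest and 3 at their lowest. Most of the sum was Postn, periostin, so 2 markers of quieter fibroblasts, chosen after their values were seen, are given alone. Pi16 was at 8.29, 60.3, 52.8, 33.4 and 8.47 CPM in Pax7Cre mice 1 to 5 and at 18.2 to 26.4 CPM in miR-501ΔMP. Clec3b was at 27.9, 68.9, 44.6, 23.6 and 30.7 CPM in Pax7Cre and at 31.7 to 41.4 CPM in miR-501ΔMP. Both were highest in Pax7Cre mouse 2. The 9 tenocyte markers, among them Tnmd and Scx, summed to 1281 to 1691 CPM in Pax7Cre and 1359 to 1848 CPM in miR-501ΔMP. Between genotypes the log2 fold change was below 0 for 9 of 12 FAP markers (median -0.036) and for 7 of 9 tenocyte markers (median -0.13). It was below 0 for 52.1% of all genes. The mean deviation of the tenocyte markers was -0.29 (log2) in miR-501ΔMP mouse 4 and -0.28 in Pax7Cre mouse 2. In the other mice it was -0.0023 to 0.27. Neither count was repeated with single mice left out. No gene of these lists passed an unadjusted edgeR p under 0.05 between genotypes. By the exact permutation test 1 was under 0.05 (1.53% of all genes), the tenocyte marker Cilp, a cartilage matrix gene, at 0.21 (log2, exact permutation p = 0.0397; edgeR adjusted p = 1.00). The part of these cells in the values of the SLRP genes was not tested.

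**Figure D5:**
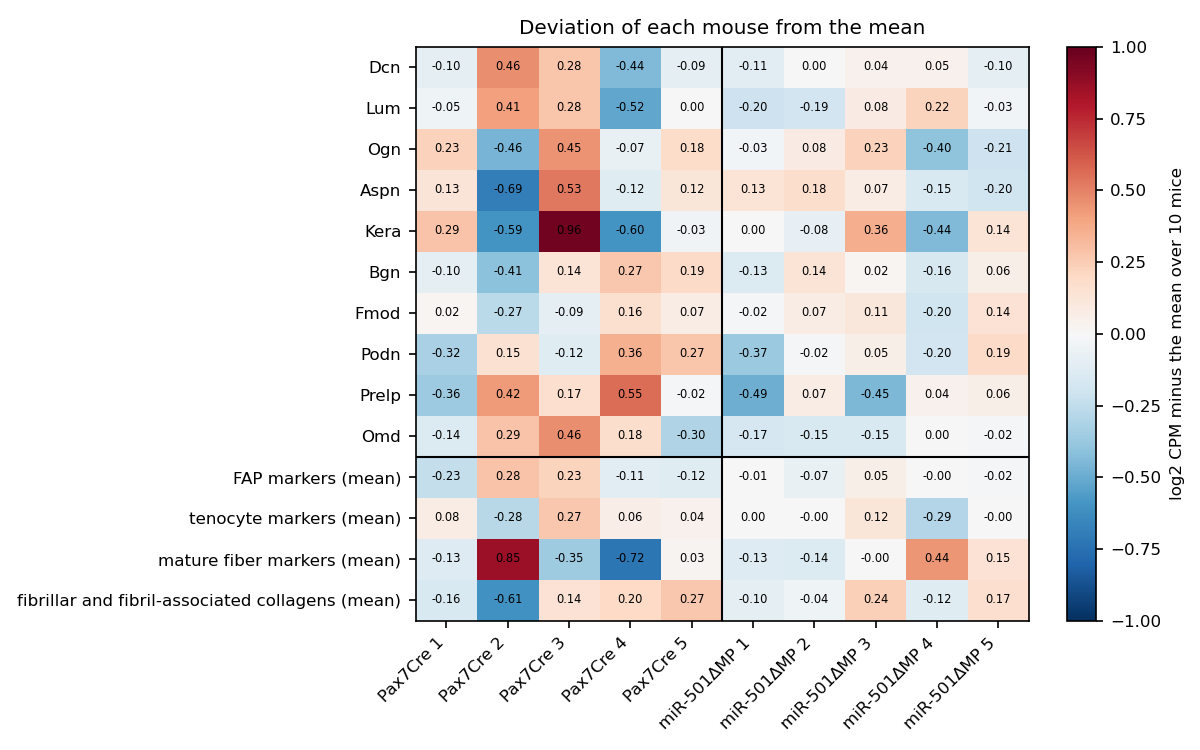
Deviation of log2 CPM from the mean of 10 mice for each SLRP gene (upper block) and the mean deviation of 4 marker lists (lower block), 1 column per mouse. Dcn and Lum are red in Pax7Cre mouse 2, where Bgn, Ogn and Aspn are blue, and mature fiber markers reach 0.85 there and -0.72 in Pax7Cre mouse 4.

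The enzymes that build the glycosaminoglycan chains of SLRPs did not pass the test between genotypes. Of 22 genes for the linker and for chondroitin or dermatan sulfate, 0 were called, 0 were higher at an unadjusted edgeR p under 0.05 and 1 was lower, Chst7, with a median log2 fold change of 0.0049. Chst7, which adds sulfate to chondroitin, had 5.58 to 6.39 CPM in Pax7Cre and 3.59 to 5.24 CPM in miR-501ΔMP. Its groups did not overlap (0.0763% of all genes were lower in every miR-501ΔMP mouse), with a fold change of -0.34 ± 0.122 (log2, SE; interval -0.60 to -0.071; edgeR adjusted p = 1.00; exact permutation p = 0.00794, the smallest that 5 mice against 5 allow) at 76 to 148 reads. The most abundant of these enzymes per kilobase were Chpf, a chondroitin polymerizing factor (48.5 ± 8.99 CPM in Pax7Cre, 48.9 ± 4.69 in miR-501ΔMP), and B3gat3, which completes the linker (32.4 ± 2.67 and 31.6 ± 2.91 CPM; SD, n = 5 each).

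Of 9 keratan sulfate genes, 0 were under an unadjusted edgeR p of 0.05 in either direction (median log2 fold change 0.019). B4galt1, a galactosyltransferase, was at 96.5 ± 12.0 CPM in Pax7Cre and 97.0 ± 5.38 in miR-501ΔMP, and St3gal3, a sialyltransferase, at 29.4 ± 4.80 and 28.2 ± 2.82 CPM (SD, n = 5 each). The 12 collagens, the ligands on which SLRPs sit, gave 0 as well (median 0.016). Col1a1 was at 7239 ± 1894 CPM in Pax7Cre and 7309 ± 791 in miR-501ΔMP, and Col3a1 at 7913 ± 1113 and 7729 ± 689 CPM. Both had at least 90874 reads per mouse.

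Of 19 tested genes of 20 for collagen processing and crosslinking, 0 were under an unadjusted edgeR p of 0.05 (median 0.053), among them Serpinh1, the collagen chaperone (825 ± 183 and 856 ± 89.4 CPM), and Loxl1, a crosslinking oxidase (223 ± 51.9 and 234 ± 28.3 CPM). The 10 proteases that cleave SLRPs gave 0 (median -0.0074), with Mmp2 at 553 ± 65.9 and 540.1 ± 54.6 CPM and Mmp14 at 513 ± 93.1 and 521 ± 10.6 CPM. Of 27 ligands and receptors, 26 were tested (Erbb4, with 7 reads in all, was not) and 0 were under an unadjusted edgeR p of 0.05 (median -0.0065). Itgb1, an integrin subunit, was at 689 ± 52.6 and 706 ± 29.6 CPM, and Lrp1, which takes up decorin, at 643 ± 172 and 660 ± 63.7 CPM (Pax7Cre and miR-501ΔMP, SD, n = 5 each).

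Of 8 further SLRP or SLRP-like genes, 6 were tested and 0 were under an unadjusted edgeR p of 0.05 (median log2 fold change 0.056). By the exact permutation test 1 was under 0.05 (1.53% of all genes), Optc (opticin, best known from the eye), at 0.317 to 0.833 CPM in Pax7Cre and 0.636 to 1.09 CPM in miR-501ΔMP, with 6 to 24 reads per mouse (log2 fold change 0.57 ± 0.265, SE; interval -0.0039 to 1.14; edgeR adjusted p = 1.00; exact permutation p = 0.0476). Ecm2, a matrix gene with leucine-rich repeats, was at 62.0 ± 12.8 CPM in Pax7Cre and 64.8 ± 4.02 in miR-501ΔMP, and Tsku, tsukushi, at 20.7 ± 5.73 and 21.5 ± 1.78 CPM (SD, n = 5 each). Epyc and Nyx had 21 and 58 reads in all 10 mice together and were not tested.

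Among all genes tested, those with the pattern most like each member over the 10 mice were found by Pearson's r of log2 CPM, given as a description with no p. Dcn was most like Bloc1s6 (0.978), Ccl11 (0.975) and Acad8 (0.973), and Lum was most like 1700021F05Rik (0.975), Gm44503 (0.974) and Ccpg1 (0.970). For Bgn they were Mxra8 (0.968), Ephb3 (0.961) and Timp2 (0.958), and for Fmod Fzd2 (0.956), Ankrd50 (0.937) and Arhgap1 (0.933). Ogn was most like Spic (0.957), Cdkn1c (0.956) and Cdk17 (0.953), and Aspn was most like Rbm12b1 (0.978), Armh4 (0.962) and Sec63 (0.956).

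For Prelp the nearest genes were Sod3 (0.947), Vegfd (0.939) and Apcdd1 (0.902), and for Podn they were Foxj2 (0.951), H6pd (0.951) and Susd2 (0.943). Kera was most like Lhfp (0.926), Fibin (0.919) and Stra6 (0.919). Omd, at 26 to 45 reads per mouse, was too shallow for this comparison. No SLRP gene was among the 3 nearest of another.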

How the data were processed

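The members and gene lists were chosen with earlier results of these data known. Per the labels, the authors made stranded mRNA libraries (100 bp single-end reads), and their processing notes name STAR, featureCounts, R 3.5.1 and the genome build GRCm38.p5. The authors deposited raw counts per gene and mouse, with no normalization. Strand and multiple-match settings are not given in the sources used here. Ensembl identifiers were looked up in GENCODE M21 (25664 of 25700 found). Totals were 18609222 to 24753258 counts per mouse.

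In R 4.3.3, edgeR 4.0.16 kept 14410 genes (filterByExpr, minimum count 10, total 15), scaled them by TMM and compared the genotypes by its quasi-likelihood test with Benjamini-Hochberg adjustment at 0.05. Genotypes came from the labels, and the p-values between genotypes set the difference of the groups against the spread between these mice. CPM are TMM-scaled. Exact two-sided permutation tests used log2 CPM (prior count 2), with a smallest possible p of 0.00794. Correlations used 100000 permutations. Per-kilobase levels used the union of annotated exons.

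On simulated data (14341 genes), the steps recovered 92.9% of changes of 1 (log2) and 40% of 0.5, with 5.76% false among 139 calls. The simulation gave every gene the same relative spread between mice and held no mice that stood apart, unlike Pax7Cre mice 2 and 4. These shares check the steps and do not give what the comparison of these mice could recover. All 10 members are named, with the list genes under an unadjusted p of 0.05, the 2 highest per kilobase of each pathway list, and the 3 genes most like each member except Omd, left out for its few reads. Pi16, Clec3b, Optc and Cilp were named after their values were seen. Alternatives were DESeq2 1.42.0 (size factors, Wald test), TMM without the members, collagens and mature fiber genes, other filters, robust empirical Bayes, a likelihood ratio test with trended dispersion, a replicate block and leaving out each mouse. Ctgf and Wisp1 are older symbols of Ccn2 and Ccn4 and were counted once. Leaving out Pax7Cre mice 2 and 4 together, the coding length and the ratios were added after seeing the data.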

Additional observations from a re-analysis of the deposited data

Results flagged for a closer look

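The ratio of Lum to Fmod counts was 4.89 in miR-501ΔMP mouse 4, against 3.04 to 3.56 in the other miR-501ΔMP mice, a gap beyond Dixon's 95% critical value of 0.71 for 5 samples. Of 26 groups of 5 mice examined in this way it was the only one beyond that value, and chance gives about 1.3. In that mouse Lum was at 456 CPM, the highest of its genotype, and Fmod at 93.2 CPM, the lowest.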

How the results depend on the processing

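No SLRP gene was called at an adjusted p under 0.05 in any alternative run. The count of members lower at an unadjusted edgeR p under 0.05 went from 0 to 1 with the likelihood ratio test (Prelp), with the replicate block (Prelp) and without Pax7Cre mice 2 and 4 (Ogn), and was 0 to 1 when single mice were left out (Prelp without Pax7Cre mouse 1). Members under 0.05 by the exact permutation test were also 0 to 1 in those fits (Omd without Pax7Cre mouse 5). The median log2 fold change of the members was -0.18 to -0.019 when single mice were left out. Over the members, 89 of 90 fold changes in the other alternatives kept their direction, and Aspn was 0.0093 with the replicate block. The likelihood ratio and robust empirical Bayes runs hold the same fold changes as the main fit, so theirs could not turn. When single mice were left out, the fold change (log2) was -0.17 to 0.12 for Aspn, -0.14 to 0.015 for Bgn, -0.18 to 0.041 for Dcn, -0.019 to 0.092 for Fmod, -0.24 to 0.21 for Kera, -0.19 to 0.028 for Lum, -0.26 to -0.043 for Ogn, -0.23 to -0.070 for Podn, -0.32 to -0.13 for Omd and -0.43 to -0.21 for Prelp, and the cause was not tested. The log2 ratio difference was -0.19 to 0.20 for Dcn to Bgn, -0.27 to 0.068 for Lum to Fmod and -0.19 to -0.025 for Ogn to Bgn in those fits, and 0.040 for Dcn to Bgn without Pax7Cre mice 2 and 4. The likelihood ratio test called 19 genes of the whole table. Without a filter, 153 genes were higher and 159 lower at an unadjusted edgeR p under 0.05, against 55 and 96. The labels do not say that equal mouse numbers are pairs, and the deviations of same-numbered mice correlated at -0.30 to 0.34, with 3 of 5 pairs above 0.1 and 5 of 10 mice best with their own number, so pairing was neither assumed nor excluded. With the replicate block 87 genes were higher and 102 lower at an unadjusted edgeR p under 0.05, and Prelp was at -0.31. Single mice moved those counts to 39 to 267 higher and 59 to 242 lower. Depth limited Omd, at 26 to 45 reads.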

Other observations

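Other cells of the muscle were compared by lists of their markers, of which 0 genes were under an unadjusted edgeR p of 0.05 between genotypes, and 0 by the exact permutation test. The 8 macrophage markers, such as Lyz2 and C1qb, summed to 4938 to 6990.4 CPM in Pax7Cre and 5177 to 6134 CPM in miR-501ΔMP. The 5 satellite cell markers, with Myod1 among them, summed to 176 to 233 CPM and 186 to 212 CPM, and the 6 endothelial markers to 574 to 687 CPM and 569 to 705 CPM. The 6 smooth muscle and pericyte markers summed to 1063 to 1324 CPM and 1230.2 to 1423 CPM, and the 5 Schwann cell markers to 33.6 to 60.9 CPM and 36.8 to 56.0 CPM. The 5 adipocyte markers, with Adipoq and Cfd, summed to 17.2 to 68.1 CPM in Pax7Cre and 4.52 to 51.5 CPM in miR-501ΔMP, lowest in miR-501ΔMP mouse 1. The log2 fold change was below 0 for 5 of 5 adipocyte markers (median -0.38) and 5 of 6 endothelial markers (median -0.060). It was below 0 for 52.1% of all genes. The mean deviation of the adipocyte markers was -2.36 (log2) in miR-501ΔMP mouse 1. In the other miR-501ΔMP mice it was -0.19 to 0.65, and in Pax7Cre -0.84 to 1.09. The adipocyte fold changes without miR-501ΔMP mouse 1 are not given here. The miR-501ΔMP mouse 1 also had the lowest Prelp of all mice, 47.2 CPM, and the lowest Podn, 26.1 CPM, and the part of either in the other was not tested.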
